A study of Mus musculus with 2 samples.

Results

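The interferon response genes examined here are 37 mouse genes whose transcription is induced by interferons. They were chosen by symbol from a fixed list, and all 37 are among the 31053 genes of the deposited tables. Within them, 13 genes known for strong induction by type I interferon were set apart as a core: Ifit1, Ifit2, Ifit3, Ifit3b, Isg15, Irf7, Oasl2, Oas1a, Rtp4, Usp18, Xaf1, Rsad2 and Zbp1. The data are droplet single-cell RNA libraries from the hippocampus of untreated Mr1+/+ and Mr1-/- mice, all 7 months of age, with 1 library per genotype. Mr1 encodes an MHC class I-like molecule that shows small microbial metabolites to MAIT cells, a class of innate-like T cell. Its transcript was counted with 139 UMIs in 133 of 6410 barcodes of the Mr1+/+ library and with 2 UMIs in 2 of 5347 barcodes of the Mr1-/- library. Live nucleated cells (DAPI-negative and Draq5-positive) were sorted before a 5' gene expression library was made. How many mice went into a library, and their sex, the labels do not say. With 1 library per genotype no test was possible, and every difference below is a difference between these 2 libraries. Genotype cannot be told apart from animal, dissection, sort or library preparation. Intervals are 95% and cover counting error only.

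Type I interferons (interferon alpha and beta) bind the receptor IFNAR and activate the kinases JAK1 and TYK2. These lead to the assembly of a complex with STAT2 and IRF9 that binds the interferon-stimulated response element (ISRE) in the promoters of its target genes. Interferon gamma acts through a different promoter element, the gamma-activated site (GAS), and many GTPase genes respond strongly to it. In the brain, endothelial cells and microglia are known to respond to interferons, and a low interferon tone is known in healthy tissue.

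The promoters of these genes are shown because the complex described above acts through them. RefSeq promoter sequences of build GRCm38.p6, each 300 bases long and running from 250 bases before the transcription start, were found for 28 of the 37 genes (32 promoters). The ISRE core, searched as GAAA, any 2 bases and GAAA again on either strand, was in the promoter of 20 of these 28 genes. It was in 65.6% of the 32 promoters, against 3.44% of all 32851 promoters in the table. In 16 genes a match lay before the start site, and in Ddx58, Eif2ak2, Ifih1 and Ifitm3 it lay only after it. The GAS core, TTCNNNGAA on either strand, was in 8 of the 32 promoters, against 8.3% of all promoters. A GAS and an ISRE match overlapped by 3 bases in Bst2 and in Ifitm3. The core genes Irf7, Oasl2, Xaf1 and Ifit2 held no ISRE match in this window, which says only that these letters were not found there. Among the 5 GTPase genes, all 5 held an ISRE match. A GAS match was also in 2 of them, Gbp7 and Igtp, against 9.55% of all genes. GAS matches are not marked below, and that of Igtp, 45 bases before the start site, lies in its stretch. The stretches below are written 5' to 3' on the gene's own strand, with every ISRE match in capitals, so that overlapping matches form 1 longer run, and the distance given is that of the start of the first. They are those of 3 Ifit genes and Isg15, all core genes, and of the 5 GTPase genes. These 5 stood higher in the endothelial-like cells of the Mr1-/- library.
Isg15 (chr4:156200867-156200916, minus strand, starting 78 bases before the start site): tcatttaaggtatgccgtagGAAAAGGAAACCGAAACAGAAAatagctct
Ifit1 (chr19:34640765-34640814, plus strand, 104 bases before): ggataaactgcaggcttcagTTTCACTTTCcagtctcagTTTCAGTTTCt
Ifit3 (chr19:34583387-34583436, plus strand, 122 bases before): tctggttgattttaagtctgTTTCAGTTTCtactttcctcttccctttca
Ifit3b (chr19:34607783-34607832, plus strand, 154 bases before): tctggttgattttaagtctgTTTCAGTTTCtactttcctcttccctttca
Gbp2 (chr3:142620584-142620633, plus strand, 59 bases before): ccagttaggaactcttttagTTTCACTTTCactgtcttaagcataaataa
Gbp3 (chr3:142559979-142560028, plus strand, 45 bases before): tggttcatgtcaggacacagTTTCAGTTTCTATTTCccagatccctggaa
Gbp7 (chr3:142530263-142530312, plus strand, 53 bases before): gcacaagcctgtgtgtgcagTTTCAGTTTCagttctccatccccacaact
Igtp (chr11:58199502-58199551, plus strand, 34 bases before): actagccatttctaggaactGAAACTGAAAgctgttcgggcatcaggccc
Irgm1 (chr11:48871421-48871470, minus strand, 30 bases before): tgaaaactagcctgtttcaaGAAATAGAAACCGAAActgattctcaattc
The stretches of Ifit3 and Ifit3b are the same, and lie in a run of 169 identical bases in their promoters. The transcripts are alike as well: of the 50-base words in the starts of the annotated transcripts (up to 500 bases), 50.1% of those of Ifit3 and 60.1% of those of Ifit3b also occur in the other gene. The share was 85.6% for Oas1a (with Oas1g and Oas1b) and 68.0% for Ifi204 (with its Ifi200 neighbours). Smaller shares were found for other interferon response genes. The largest of these were 29.5% for Ifit1 (with Ifit1bl2 and Ifit1bl1) and 24.2% for Igtp (with Irgm2). Next came 21.4% for Trim30a (with Trim30d) and 19.4% for Rtp4 (with Gm45338). The sources used here do not give how such reads were assigned. Counts of all genes that share words are thus uncertain between the copies, and the 4 genes named first share the most.

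The Mr1+/+ library held 6410 barcodes with 23244575 UMIs (unique molecular identifiers, each counting 1 captured transcript) and the Mr1-/- library 5347 barcodes with 18349132 UMIs. Median depths were 3160 and 2935 UMIs per barcode, and 44 barcode sequences occurred in both libraries. After filtering and doublet removal 6004 and 5102 cells were kept. They were clustered without the interferon-induced genes and named from marker genes. Classes are called endothelial-like, microglia-like and so on, since the names rest on markers only. The 5 large classes were endothelial-like (1404 and 1507 cells), microglia-like (641 and 744), mural-like (966 and 971), oligodendrocyte-like (1436 and 956) and astrocyte-like (956 and 477). The defining markers were detected in all endothelial-like and microglia-like clusters, with 9 of 9 and 10 of 10 markers seen in at least 10% of cells.

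The interferon response genes were transcribed mainly in endothelial-like cells. The 37 genes held 57098 UMIs in the Mr1+/+ cells and 58315 in the Mr1-/- cells, which is 0.266% and 0.337% of all UMIs. The share over all cells follows the class sizes, which differ between the libraries, so levels are given within classes, as UMIs per 1000000 UMIs of the class (CPM). Among the large classes endothelial-like cells had the highest level of 33 genes by the Mr1+/+ values and of 31 by the Mr1-/- values, 31 of them by both. The sum of the 37 genes was 9998 and 10475 CPM in endothelial-like cells and 3153 and 3142 CPM in microglia-like cells. It was 1272 and 1294 CPM in mural-like, 372 and 428 CPM in oligodendrocyte-like and 402 and 425 CPM in astrocyte-like cells (Mr1+/+ value given before the Mr1-/- value here and below). Ly6e alone gave 4945 and 5073 CPM of the endothelial-like sum and 2075 and 2030 CPM of the microglia-like sum. The 13 core genes summed to 1413 and 1607 CPM in endothelial-like and 146 and 154 CPM in microglia-like cells. Their sum was 115 and 128 CPM in mural-like and 134 and 145 CPM in oligodendrocyte-like cells. Ifit2, which binds viral RNA, was highest in oligodendrocyte-like cells (14.1 and 16.3 CPM against 11.6 and 13.9 CPM in endothelial-like cells), but these values overlap in their counting intervals. Ifi204, a DNA sensor, was at 0 and 2 UMIs in endothelial-like cells, at 10 and 10 in microglia-like cells and at 8 and 13 in mural-like cells, where its level was highest. It is the only one of the 37 genes on the chromosome of Mr1, 18.6 Mb away from it. Levels here compare classes for a given gene; levels of different genes were not compared.

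**Figure D1:**
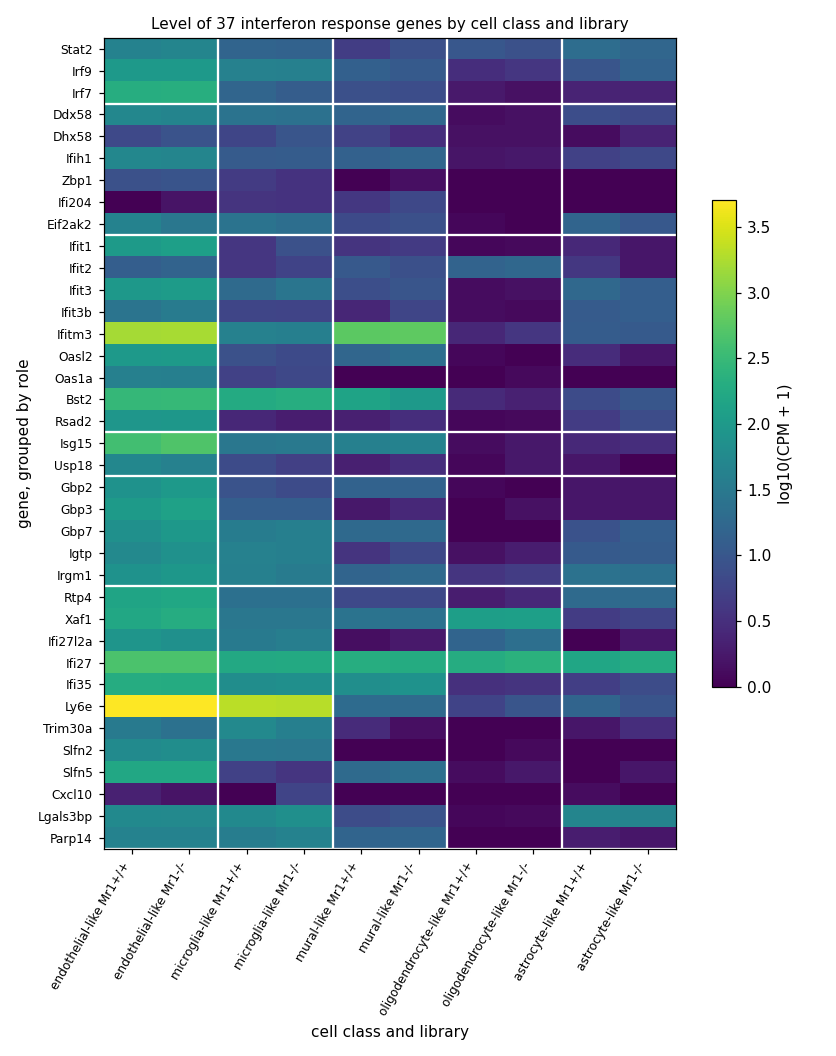
Level of each of the 37 genes (rows, grouped by role) in the 5 large classes of each library (columns), as log10(CPM + 1). Rows are to be read across: most are brightest in the endothelial-like columns, and within a class the columns of the 2 libraries look alike.

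In endothelial-like cells the 13 core genes together stood slightly higher in the Mr1-/- library. Their sum was 1413 CPM (1374 to 1454, 4869 UMIs) and 1607 CPM (1565 to 1649, 5678 UMIs), a ratio of 1.14 (1.09 to 1.18). Of the 37 genes, 34 had at least 50 UMIs over both libraries and are called measured; in the Mr1-/- cells 23 stood higher and 11 lower, with a median log2 ratio of 0.06 against 0.02 over all 8929 measured genes. A ratio of at least 1.5 was reached by 0 of the 34 genes, against 2.68% of all measured genes, and a ratio of 1/1.5 or less by 1 gene, against 2.13%. These shares do not set the 37 genes apart. The median of the 13 core genes was 0.18, with 11 higher and 2 lower.

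Of the transcription factors, Irf7, the factor that amplifies the response, had 695 and 741 UMIs (202 and 210 CPM, ratio 1.04, 0.936 to 1.15). Stat2 and Irf9, the DNA-binding complex itself, had ratios of 1.1 (0.876 to 1.38) and 1.0 (0.86 to 1.16). All 3 intervals included 1. Of the 4 measured nucleic acid sensors 1 was higher and 3 were lower. Eif2ak2, the double-stranded RNA-activated kinase PKR that halts translation, was the gene past 1.5-fold. It had 150 UMIs (43.5 CPM) and 101 UMIs (28.6 CPM), a ratio of 0.656 (0.505 to 0.85). The RNA helicases Ddx58 (RIG-I) and Ifih1 (MDA5) had ratios of 0.919 and 0.936, and their intervals spanned 1. Zbp1, a sensor of Z-form nucleic acids, had 25 and 29 UMIs and Dhx58 19 and 28.

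Among the antiviral effectors 8 of 9 were higher in the Mr1-/- library, by small ratios. Ifitm3, a membrane protein that blocks virus entry, was found in 83.9% and 85.5% of endothelial-like cells, at 1582 and 1666 CPM (ratio 1.05, 1.01 to 1.09). Ifit1 had 362 and 428 UMIs (105 and 121 CPM, ratio 1.15, 1.0 to 1.33). Ifit3 had 325 and 381 UMIs (94.3 and 108 CPM, ratio 1.14, 0.983 to 1.33), and Ifit3b 87 and 120 UMIs (ratio 1.34, 1.01 to 1.79). The Ifit genes pointed the same way, but for Ifit1, Ifit2 and Ifit3 the intervals reached or crossed 1. Rsad2 (viperin) had 304 and 324 UMIs, and Oasl2, of the oligoadenylate synthetase family, 345 and 372, with ratios of 1.04 and 1.05. Oas1a had 138 and 135 UMIs. Bst2 (tetherin), which holds budding virus at the cell surface, had 1014 and 1074 UMIs (ratio 1.03, 0.947 to 1.13).

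Isg15, a ubiquitin-like protein that is attached to other proteins, was the core gene with the largest difference in CPM. It had 1304 UMIs (379 CPM, 358 to 400) and 1683 UMIs (476 CPM, 454 to 500), a ratio of 1.26 (1.17 to 1.35). It was detected in 34.8% and 41.6% of endothelial-like cells. Usp18, which removes ISG15 and damps IFNAR signalling, went the other way, with 173 and 148 UMIs (50.2 and 41.9 CPM, ratio 0.834, 0.665 to 1.04), an interval that includes 1. In the remaining group, Ly6e, a surface protein found in nearly all endothelial-like cells (98.6% and 99.1%), had 17034 and 17928 UMIs (4945 and 5073 CPM, ratio 1.03, 1.0 to 1.05). Ifi27, a mitochondrial protein, had 449 CPM in both libraries (1548 and 1587 UMIs). Xaf1, a pro-apoptotic factor, had 573 and 697 UMIs (ratio 1.19, 1.06 to 1.33), and Rtp4 had 498 and 571 (ratio 1.12, 0.989 to 1.26). Trim30a, a negative regulator of NF-kB signalling, was lower, with 111 and 81 UMIs (ratio 0.711, 0.527 to 0.956). The other 6 of this group, Ifi27l2a, Ifi35, Slfn2, Slfn5, Lgals3bp and Parp14, had ratios from 0.845 to 1.12, each with an interval that reached or included 1. Cxcl10, the chemokine ligand of CXCR3, had 4 and 2 UMIs in endothelial-like cells, and no ratio is read from it.

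**Figure D2:**
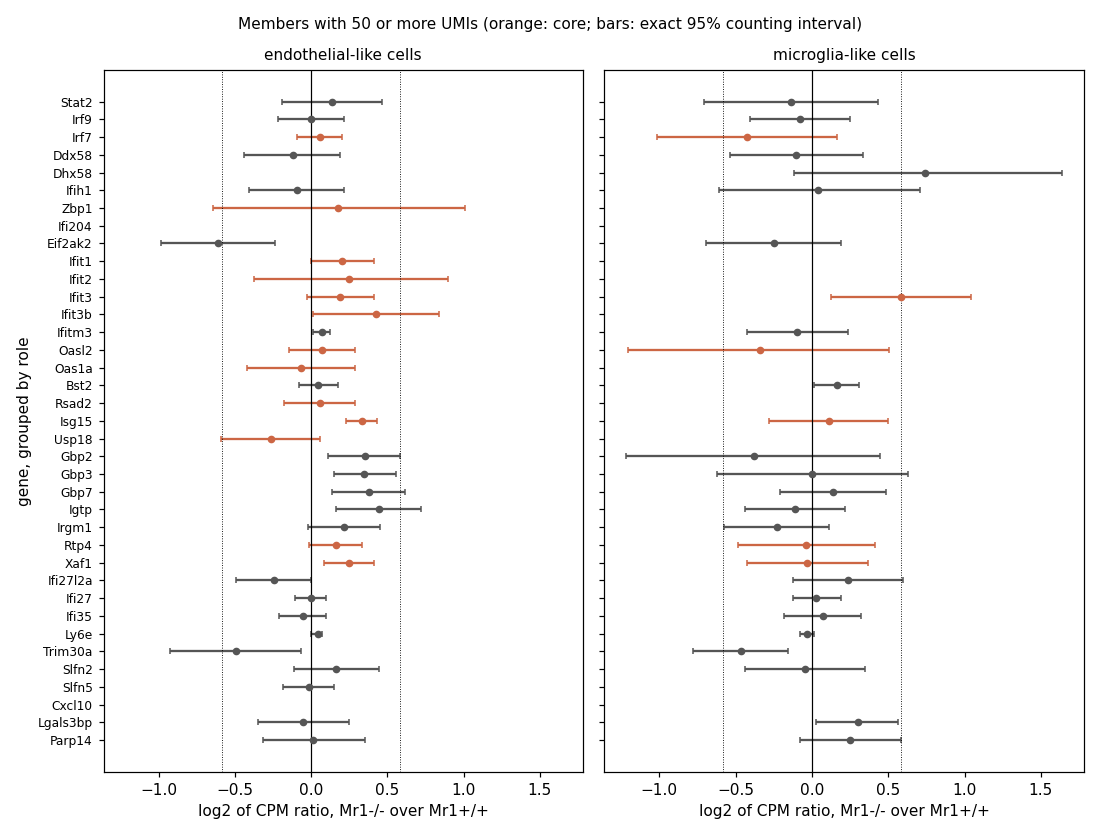
Log2 ratio of CPM (Mr1-/- over Mr1+/+) of each gene with at least 50 UMIs in endothelial-like cells (left) and microglia-like cells (right), with exact 95% counting intervals; core genes are orange and dotted lines mark 1.5-fold. In endothelial-like cells only Eif2ak2 lies past a dotted line, and the 5 GTPase genes all lie right of 0.

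The 5 GTPase genes were the role group with the clearest shift. Gbp2, Gbp3 and Gbp7 are guanylate-binding proteins encoded side by side on chromosome 3, and Igtp and Irgm1 are immunity-related GTPases encoded on chromosome 11; both families attack vacuoles that hold microbes. In endothelial-like cells Gbp2 had 266 and 348 UMIs (77.2 and 98.5 CPM, ratio 1.28, 1.08 to 1.5). Gbp3 had 356 and 465 UMIs (103 and 132 CPM, ratio 1.27, 1.11 to 1.47). Gbp7 had 249 and 331 UMIs (72.3 and 93.7 CPM, ratio 1.3, 1.1 to 1.53). All 3 were thus higher in the Mr1-/- library by similar ratios. Gbp genes outside the 37 were mixed in endothelial-like cells. Gbp4 and Gbp9 had ratios of 1.9 and 1.59, and Gbp5 had 0.966 (0.731 to 1.28). Igtp had 187 and 261 UMIs (54.3 and 73.9 CPM, ratio 1.36, 1.12 to 1.65). Irgm1 had 267 and 318 UMIs (77.5 and 90.0 CPM, ratio 1.16, 0.984 to 1.37), and its interval included 1. Summed, the 5 genes were at 385 and 488 CPM, a ratio of 1.27 (1.18 to 1.36). This group was singled out after its values were seen. The sum was higher in each of the 3 endothelial-like clusters: 1.18 (1.07 to 1.29) in the cluster led by the capillary gene Pglyrp1, 1.36 (1.21 to 1.54) in that led by the arterial gene Gkn3, and 1.77 (1.31 to 2.4) in that led by the venous gene Vwf. The Vwf-led cluster had only 76 and 114 UMIs of these genes, at median depths of 1059 and 1507 UMIs per cell. The ratio had the same value in cells with 3 or more core genes (1.24, 1.12 to 1.37) and in the other endothelial-like cells (1.24, 1.11 to 1.38). In microglia-like cells the same 5 genes had 517 and 509 UMIs (ratio 0.946, 0.836 to 1.07), and in mural-like cells 133 and 136 (ratio 1.13, 0.887 to 1.45). Whether the ratios of these classes differ could not be tested with 1 library per genotype.

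**Figure D3:**
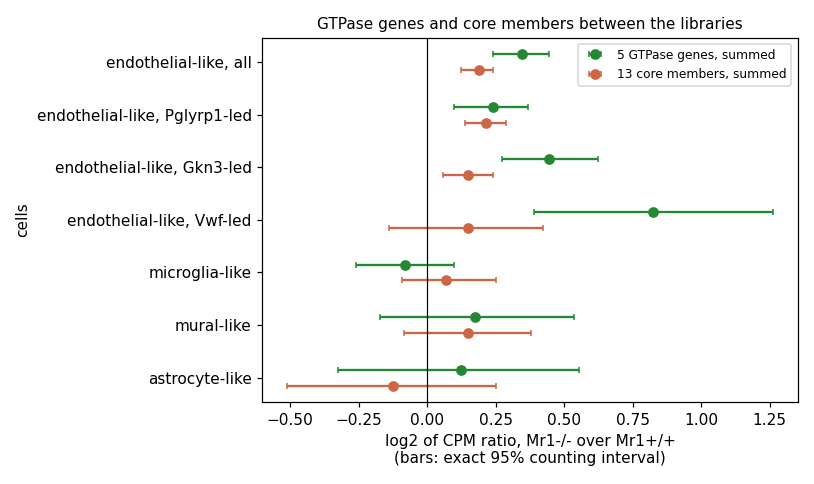
Log2 ratio of summed CPM (Mr1-/- over Mr1+/+) of the 5 GTPase genes (green) and the 13 core genes (orange) in classes and endothelial-like clusters, with exact 95% counting intervals. The green points of all endothelial-like rows lie right of 0, and those of microglia-like, mural-like and astrocyte-like cells have intervals that include 0.

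The core transcripts were then counted per cell. A cell was counted as carrying several core genes when it had a UMI of at least 3 of the 13. Over all kept cells, 482 of 6004 Mr1+/+ cells and 588 of 5102 Mr1-/- cells did so. Of endothelial-like cells, 423 of 1404 did in the Mr1+/+ library (30.1%, exact binomial interval 27.7 to 32.6) and 525 of 1507 in the Mr1-/- library (34.8%, 32.4 to 37.3). The difference was 4.71 percentage points (1.3 to 8.09). After each cell was thinned to 1500 UMIs, which left out 267 and 211 shallower cells, the shares were 20.8% (18.4 to 23.2) and 23.1% (20.8 to 25.5), and these intervals overlap. Cells with several core genes held 77.2% and 79.1% of the core UMIs of their class and 36.1% and 39.3% of all its UMIs. These cells were picked by their core UMIs, so the choice itself raises the core share. Their median depths were 2842 and 2527 UMIs, against 2273 and 2181 in the other endothelial-like cells. The highest cell of each library had a UMI of all 13 core genes, and 342 and 326 cells had none.

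Core genes were carried together. Isg15 was found in 129 of 171 Mr1+/+ endothelial-like cells with Ifit3 (75.4%, 68.3 to 81.7) and in 29.2% of those without it. In the Mr1-/- library these shares were 78.0% (163 of 209) and 35.7%. At 1500 UMIs per cell the shares were 68.0% against 24.2% and 71.0% against 29.0%. In oligodendrocyte-like cells, with median depths of 4354 and 4180.5 UMIs, 1 of 1436 and 2 of 956 cells carried 3 or more core genes. The part of free RNA in these shares was not tested. The share of cells with several core genes was not even over the 3 endothelial-like clusters. It was 41.3% and 45.1% in the Gkn3-led (arterial gene) cluster, 28.7% and 33.2% in the Pglyrp1-led (capillary gene) cluster, and 18 of 163 cells and 15.2% in the Vwf-led (venous gene) cluster, whose cells were the shallowest. Summed core levels, which do not count cells, had the same order, at 1821 and 2020, 1283 and 1486, and 812 and 898 CPM. An unnamed cluster led by Plvap, a gene of fenestrated vessels, had 10 of 30 and 20 of 51 such cells.

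**Figure D4:**
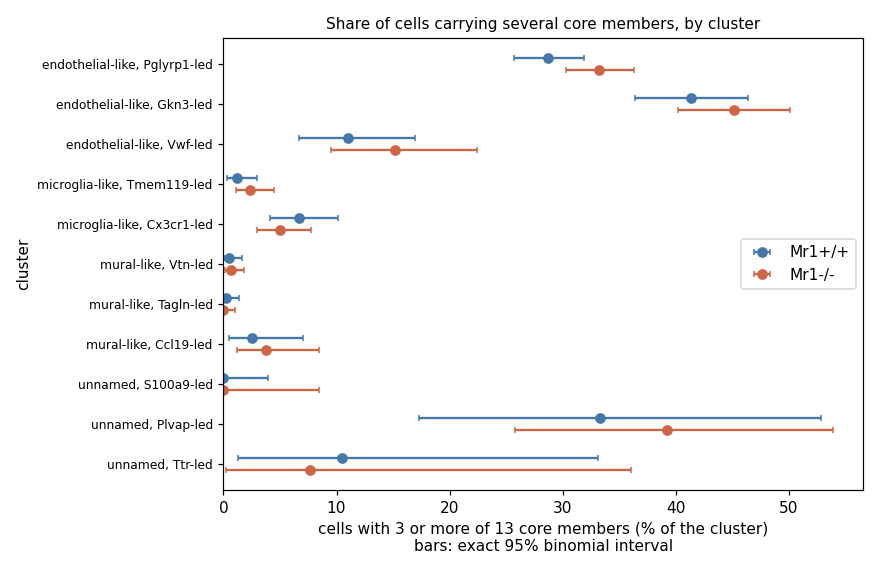
Share of cells with 3 or more of the 13 core genes in the endothelial-like, microglia-like, mural-like and unnamed clusters of each library, with exact 95% binomial intervals. The Gkn3-led, Pglyrp1-led and Vwf-led endothelial-like clusters fall in that order in both libraries, and the mural-like clusters are near 0.

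Genes outside the 37 were then compared between endothelial-like cells with several core genes and the other endothelial-like cells of the same library, adding 10 CPM to each level. In the Mr1+/+ library 5 of 3275 genes (0.153%) had a log2 ratio of at least 1, among them Cmpk2, a mitochondrial nucleotide kinase (1.64), Tgtp2, a GTPase (1.42), Igfbp3 (1.28) and Rnf213 (1.07). In the Mr1-/- library all 5 were again above 0 and 3 were at least 1. The 7 genes that came next were Iigp1, Ifi47, Adar, Irgm2, Gkn3, Psmb8 and Gbp9. Of the 12 highest genes, 9 belong to a list of 84 other interferon-induced genes, as do 29 of the 3275 genes ranked, and all 12 were above 0 in the Mr1-/- library, as were 1594 of the 3275. The exceptions to the list were Igfbp3, Adar, an RNA-editing enzyme with an interferon-induced form, and Gkn3, which marks arterial cells. The sum of the 84 genes was 7035 CPM in cells with several core genes and 5376 CPM in the others of the Mr1+/+ library, a ratio of 1.31 (1.27 to 1.35). Endothelial markers stood at 28090 and 26617 CPM in the same cells. Of the interferon receptors, Ifnar1 had 164 and 166 CPM, and Ifnar2 had 426 and 398 CPM, and both intervals of the ratio included 1. The adhesion genes Vcam1 and Icam1 had lower values in cells with several core genes. Vcam1 had 58 UMIs (46.7 CPM) against 123 (55.9 CPM) in the Mr1+/+ library, a ratio of 0.835 (0.6 to 1.15), and a ratio of 0.552 (0.375 to 0.799) in the Mr1-/- library. It was found in 57 and 55 endothelial-like cells, and 5 cells held 73 of 181 and 46 of 152 UMIs. These intervals do not cover differences between cells. In the same comparison summed venous genes had ratios of 0.911 and 0.662, capillary genes 0.917 and 0.955, and arterial genes 1.08 and 1.34. The part of vessel segment in the Vcam1 values was not tested.

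In microglia-like cells the core genes were scarce and held by few cells. The core sum was 146 CPM (134 to 159, 555 UMIs) and 154 CPM (142 to 167, 609 UMIs), a ratio of 1.05 (0.938 to 1.19). Of 27 measured genes 12 were higher and 15 lower, with a median log2 ratio of -0.03, equal to that of all 8831 measured genes. Past 1.5-fold higher was 1 gene, Dhx58, a regulator of RNA sensing (19 and 33 UMIs, ratio 1.67, 0.922 to 3.11), against 1.56% of all measured genes; 0 genes were past 1.5-fold lower, against 2.12%. Several core genes were carried by 24 of 641 cells (3.74%, 2.41 to 5.52) and 27 of 744 cells (3.63%, 2.4 to 5.24), which differ by less than counting error. These cells held 59.6% and 63.4% of the core UMIs and 6.63% and 4.35% of all UMIs of the class. The 20 highest cells of each library alone held 57.5% and 59.1% of the core UMIs. Both sets of cells were picked by their core UMIs, which itself raises these shares.

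The microglia-like cells with several core genes differed in depth between the libraries, with medians of 9292 UMIs in the Mr1+/+ and 4122 UMIs in the Mr1-/- library. When each microglia-like cell weighed the same the log2 ratio of the core sum was 0.64 in place of 0.08, and when cells were thinned to 1500 UMIs it was 0.71 (0.37 to 1.05). Without the cells with several core genes it was -0.10. The class value thus changed with the weight given to these few cells. At 1500 UMIs 7 of 623 cells (1.12%) and 14 of 733 cells (1.91%) carried several core genes. Ifit3 had 68 and 106 UMIs in 28 and 28 cells (17.9 and 26.8 CPM, ratio 1.5, 1.09 to 2.06). Of these UMIs, 55 and 92 were in the cells with several core genes. The interval counts each UMI as independent and does not cover differences between cells. Isg15 had 107 and 120 UMIs (ratio 1.08, 0.824 to 1.41) and Irf7 58 and 45 UMIs (ratio 0.746, 0.494 to 1.12). The genes with most UMIs were at even levels, with 2075 and 2030 CPM for Ly6e and 172 and 176 CPM for Ifi27. Bst2 was at 182 and 204 CPM (ratio 1.12, 1.01 to 1.24) and Ifi35 at 65.5 and 68.8 CPM. Trim30a was lower, as in endothelial-like cells, with 206 and 155 UMIs (ratio 0.723, 0.583 to 0.895).

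Other cell markers were looked up in the microglia-like cells with several core genes. Oligodendrocyte markers were at 1099 CPM in these cells and 192 CPM in other microglia-like cells of the Mr1+/+ library, but 228 of their 277 UMIs were in 1 cell. In the Mr1-/- library the levels were 169 and 160 CPM. Border macrophage markers were at 151 against 50.7 CPM and at 338 against 45.7 CPM, in 4 of 24 and 3 of 27 cells. Fibroblast markers had 0 and 53 UMIs, the latter all in 1 cell. The 8 T or NK cell markers were at 0 in microglia-like cells of both libraries. The part of such transcripts in the result was not tested. Of the 11 measured immediate early genes, which rise during tissue handling, 11 were higher in the Mr1-/- microglia-like cells (median log2 ratio 0.33), and their part was not tested either.

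Cxcl10 was counted in microglia-like cells of the Mr1-/- library only, with 0 and 19 UMIs. The Mr1-/- level was 6.09-fold the level of 3 counts, the limit that a count of 0 allows. This value leaves out the counting error of the 19 UMIs and is not a lower bound. The 19 UMIs came from 4 cells, and 9 of them from 1 cell. That cell had 8 core genes, 19 UMIs each of Ifit3 and Isg15, 73 UMIs of the chemokine Ccl4 and 1 UMI of Ifnb1, which encodes interferon beta. A different Mr1-/- microglia-like cell held 15 UMIs of Ifnb1, 4 of Cxcl10, 53 of Ccl12 and 41 of Ccl4 among 6749 UMIs, and no core gene. All Ifnb1 UMIs of the kept cells were in microglia-like cells, 1 UMI in a Mr1+/+ cell and 16 in 2 Mr1-/- cells. The other 9 interferon genes on the list, among them Ifng and 4 Ifna genes, were at 0 UMIs in all barcodes. These counts rest on single cells, and no level is read from them.

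Mural-like cells carried few core transcripts. Their core sum was 115 and 128 CPM (ratio 1.11, 0.942 to 1.3), and 6 of 966 and 8 of 971 cells (0.621% and 0.824%) had several core genes. Of 16 measured genes 10 were higher and 6 lower, with a median log2 ratio of 0.08 against 0.01 for all measured genes, and 0 were past 1.5-fold in either direction (2.35% of all measured genes were higher and 2.64% lower). Ifitm3 was at 583 and 615 CPM and Ifi27 at 202 and 191 CPM. Bst2 had 373 and 247 UMIs (138 and 101 CPM, ratio 0.735, 0.623 to 0.865), lower in the Mr1-/- library, whereas it was at even or slightly higher levels there in endothelial-like and microglia-like cells. Ifi35 had 182 and 185 UMIs. A mural-like cluster led by Ccl19 had a higher core level, 288 and 326 CPM, than the other 2 mural-like clusters, which had 108 and 126 CPM and 91.9 and 90.6 CPM.

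Oligodendrocyte-like and astrocyte-like cells held few of these transcripts. In oligodendrocyte-like cells 6 genes were measured, 5 higher and 1 lower, with a median log2 ratio of 0.21 against -0.02 for all measured genes. Ifi27 was at 197 and 228 CPM (ratio 1.16, 1.06 to 1.26) and Xaf1 at 117 and 124 CPM (ratio 1.06, 0.948 to 1.19). Xaf1 made up 730 of the 839 core UMIs of the Mr1+/+ library there, so the core sum of this class is mainly that gene. Ly6e was past 1.5-fold higher (29 and 35 UMIs, 4.63 and 8.38 CPM, ratio 1.81, 1.07 to 3.07), which 1.17% of all measured genes were; 0 genes were past 1.5-fold lower, against 2.42%. In astrocyte-like cells 8 genes were measured, 1 higher and 7 lower, with a median of -0.23 against -0.02. Past 1.5-fold lower were Ly6e (44 and 12 UMIs, ratio 0.566, 0.272 to 1.09) and Eif2ak2 (44 and 14 UMIs, ratio 0.661, 0.334 to 1.23), against 3.64% of all measured genes; 0 were past 1.5-fold higher, against 2.13%. The intervals of both include 1. Ly6e is at 4945 CPM in endothelial-like cells, and neither its level in oligodendrocyte-like cells nor that of 14.5 and 8.19 CPM in astrocyte-like cells can be told apart from free RNA. Ifi27 was at 157 and 188 CPM (ratio 1.19, 1.03 to 1.39) and Lgals3bp, a secreted glycoprotein, at 48.0 and 44.4 CPM. Several core genes were carried by 2 of 956 Mr1+/+ astrocyte-like cells and 0 of 477 Mr1-/- cells, which allows a share of up to 0.629%.

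Outside the large classes, the core transcripts of some groups came mostly from few cells. The Plvap-led cluster was not among these groups, as its 2 highest cells held 23 of 89 and 29 of 195 core UMIs. In an unnamed cluster of 19 and 13 cells led by Ttr, 1 Mr1+/+ cell held 266 of the cluster's 286 core UMIs, with 94 UMIs of Ifit3, 67 of Isg15, 47 of Ifit3b and 33 of Ifit1 among its 8029 UMIs. Core genes thus made up 3.31% of the UMIs of that cell. The highest endothelial-like cell had 3.21%, with 126 core UMIs among 3925. Fibroblast-like cells had 92 core UMIs in 30 Mr1+/+ cells and 18 in 31 Mr1-/- cells. The 5 highest cells held 73 of the 92, and 5 and 1 cells carried several core genes. Neuron-like, neuroblast-like and oligodendrocyte precursor-like cells had 29 and 31, 26 and 5, and 22 and 9 core UMIs. Ependymal-like cells had 55 and 42 core UMIs, spread over 25 and 23 cells. Those with several core genes numbered 5 of 46 and 3 of 58.

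Further genes of the interferon pathway and its targets were described from lists. Of the 84 other interferon-induced genes, 58 were measured in endothelial-like cells; 37 stood higher and 21 lower in Mr1-/- cells, with a median log2 ratio of 0.13 against 0.02 for all measured genes. Past 1.5-fold higher were 9 (2.68% of all measured genes were), and past 1.5-fold lower were 0 (2.13%). The genes with most UMIs were the class I heavy chains H2-D1 (800 and 922 CPM, ratio 1.15, 1.1 to 1.21) and H2-K1 (687 and 879 CPM, ratio 1.28, 1.21 to 1.35). B2m, the shared light chain of class I molecules, was at 554 and 748 CPM (ratio 1.35, 1.27 to 1.43). The largest ratios were those of Ifitm1 (25 and 63 UMIs, 2.46, 1.52 to 4.08) and of Tgtp1, a GTPase (68 and 133 UMIs, 1.91, 1.41 to 2.59). That of Ifitm1 rests on few cells: it was found in 14 and 11 cells, and 57 of the 63 Mr1-/- UMIs were in 5 cells, 31 of them in 1 cell. In microglia-like cells 45 were measured, 27 higher and 18 lower, with a median of 0.04 against -0.03, and B2m was at 691 and 718 CPM (ratio 1.04, 0.986 to 1.1). Ifitm1 had 52 and 4 UMIs there, of which 38 were in 1 Mr1+/+ cell. It and the chemokine Ccl5 (33 and 18 UMIs, ratio 0.524, 0.278 to 0.958) were the 2 genes of that list past 1.5-fold lower, against 2.12% of all measured genes. Past 1.5-fold higher were 2, against 1.56%. Ccl5 too rests on few cells: it was found in 8 and 6 cells, and 5 cells held 30 of the 33 and 17 of the 18 UMIs. Of the 40 pathway genes 23 were measured in endothelial-like cells, 14 higher and 9 lower. The receptor chains Ifnar2 (408 and 430 CPM, ratio 1.05, 0.978 to 1.13) and Ifnar1 (165 and 196 CPM, ratio 1.18, 1.06 to 1.33) were measured well. Il10rb, a chain shared with the interferon lambda receptor, was at 314 and 409 CPM (ratio 1.3, 1.2 to 1.41). Tbk1, a kinase upstream of interferon induction, was lower (111 and 78 UMIs, ratio 0.685, 0.506 to 0.923). In microglia-like cells 28 pathway genes were measured, 10 higher and 18 lower, among them Ifngr1 (1251 and 1225 CPM), Irf8 (517 and 488 CPM) and Tmem173, which encodes STING (471 and 446 CPM). Socs1, an inhibitor of JAK signalling, had 23 and 39 UMIs (ratio 1.63, 0.949 to 2.86) and Adar 64 and 49 UMIs (ratio 0.736, 0.497 to 1.08), and both intervals include 1.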

How the data were processed

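The 2 libraries were read as raw UMI counts per gene and barcode, deposited by the authors without normalization; per the matrix header the software version was 3.1.0, while the submitters' processing notes name Cell Ranger 5.1.0, STAR and mm10. No source used here gives the gene annotation behind the counts. Cells with at least 300 genes and at most 10% mitochondrial UMIs were kept, and Scrublet (expected rate 0.05) removed 323 of 6327 and 176 of 5278 cells as doublets. Leiden clustering (2000 variable genes, 30 components, 15 neighbours, resolution 1.0, seed 7) left out the 37 genes and the other interferon-induced genes, so that these did not set the classes. A cluster took the name of the class whose markers it carried, if at least 3 were seen in at least 10% of its cells and its leading genes did not go against the name. Figures used matplotlib 3.10.9 and tables pandas 2.3.3; clustering ran in Python 3.11.15 with scanpy 1.11.5 (anndata 0.12.19, scikit-learn 1.9.0) and leidenalg 0.10.2, and intervals were computed with SciPy 1.17.1 on NumPy 2.4.6.

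UMIs were summed per class and library. CPM, percent and log2 ratio values were computed here from the deposited counts. Counts carry exact Poisson intervals, shares Clopper-Pearson intervals, ratios exact conditional binomial intervals and differences of shares Newcombe intervals. Neither genotype has a second library, so nothing was tested. A gene was measured with at least 50 UMIs over both libraries in the class, and called with a ratio of at least 1.5 or at most 1/1.5; the scripts were tested on simulated data. Genes with values named by rule were, per large class, up to 4 measured genes with most UMIs, those with ratios past 1.5-fold, core genes, and, of the other lists, up to 4 with most UMIs and 2 with the largest ratio each way; other genes were chosen after their values were seen. The genes and lists were chosen with earlier results of these data known. Some results for single genes are not reported here. Gene positions come from GENCODE M21 (mm10) and promoters from RefSeq.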

Additional observations from a re-analysis of the deposited data

How the results depend on the processing

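Each class value was recomputed under other mitochondrial limits, without doublet removal, and with clustering on all genes. Further settings were median-of-ratios scaling, equal weight per cell, thinning to 1500 UMIs, and 10 CPM added. Other cut-offs were used for several core genes and for measured genes. Cells carrying several core genes were left out, and so were cells with 3 or more markers of other immune cells. No endothelial-like, oligodendrocyte-like or astrocyte-like cell had 3 or more such markers. In these classes the last setting repeated the main value and could not differ from it. Of 145 recomputed values, these repeats included, 136 stayed within the interval of the main value (for medians over genes, an order-statistic interval). Another 9 moved outside it, and 0 reversed a direction whose interval excluded 0. Among the large classes, the main intervals of the core values excluded 0 in endothelial-like cells only, so elsewhere no reversal of these could be counted. Signs did differ there: the mural-like share difference was above 0 in 6 alternatives and below 0 in 3. In endothelial-like cells the core log2 ratio stayed between 0.13 and 0.26 (0.26 with equal weight per cell) and the share difference between 1.94 and 4.92 points. The interval of that difference included 0 in 3 alternatives: 2.31 points after thinning (-0.989 to 5.59), 1.94 with 5 core genes required (-0.551 to 4.41) and 3.05 with 8 of all 37 genes required (-0.534 to 6.61). In microglia-like cells the core log2 ratio was 0.64 with equal weight, 0.71 after thinning and -0.1 without cells with several core genes, and the share difference was -2.5 points when 8 of all 37 genes were required. In mural-like cells the core log2 ratio was 0.47 and the median log2 ratio 0.2 after thinning, and the share difference was -1.15 points with 2 core genes required. In astrocyte-like cells the core log2 ratio was -1.32 at a limit of 20% mitochondrial UMIs, where the small cluster with the Mr1+/+ cell of 266 core UMIs took this name. The cause of the other shifts was not tested. The GTPase log2 ratio in endothelial-like cells, added after seeing the data, was 0.34 and between 0.31 and 0.4 under the same alternatives, and 0.23, 0.45 and 0.83 in the Pglyrp1-led, Gkn3-led and Vwf-led clusters alone. No paired analysis was possible because each genotype has 1 library. In each class other than endothelial-like cells most core genes have under 50 UMIs, which limits the precision of their ratios.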
